A study of Homo sapiens with 6 samples.

Results

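The AP-1 and immediate early factors are 10 genes of the *FOS*, *JUN* and *EGR* families together with *ATF3*, taken by gene symbol from a table of 58676 gene identifiers. They are *FOS*, *FOSB*, *FOSL1*, *FOSL2*, *JUN*, *JUNB*, *JUND*, *EGR1*, *EGR3* and *ATF3*. All 10 had at least 10 counts summed over the libraries and were among the 19072 genes tested. RNA-Seq was performed on the human lung fibroblast line MRC5, given conditioned media (CM) for 24 h. In 3 libraries the media came from control ATIIER:KRASV12 cells (control ATII CM, written control CM from here on). The media of the 3 remaining libraries came from the same cells given 4-hydroxytamoxifen (4-OHT ATII CM, or 4-OHT CM). ATIIER:KRASV12 is an alveolar epithelial type II line whose RAS pathway is switched on by 4-OHT. The fibroblasts themselves carry no transgene in the labels, and both groups are the same line. The comparison asks what signals from RAS-activated epithelial cells do to fibroblasts. RAS activation of the donor cells and any 4-OHT left in their media cannot be told apart in this design.

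AP-1 is a pair of leucine zipper proteins, in which a FOS protein typically joins a JUN protein to hold DNA, whereas JUN proteins can also pair with each other. Growth factors reach these genes through the ERK, JNK and p38 kinases, and *FOS*, *EGR1* and *JUNB* are known for rising within minutes of a stimulus and falling again within hours. *FOSL1* (FRA-1) and *FOSL2* (FRA-2) lack the strong activation domain of FOS and are known for a slower, lasting answer, and FRA-1 protein is stabilized by ERK. EGR proteins are zinc finger factors, and ATF3 is a stress-induced partner of JUN. In lung fibroblasts AP-1 is known for its part in migration, protease expression and fibrosis.

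Library totals ranged from 17691849 to 26389449 counts on genes. Control CM replicate 2 stood apart from the other controls, since the chi-square of its counts over genes, divided by the degrees of freedom, was 6.03 and 5.27 against replicates 1 and 3, where those 2 differed by 2.12 and the 4-OHT CM libraries by 2.42 to 3.10. Values without it are given beside the results that it moves most. Levels are given as CPM, the counts scaled to library size with TMM factors, and as CPM per kb of merged exon where 2 genes are compared. The cells showed fibroblast markers, since all 8 chosen ones were tested and their summed level was between 40254 and 43675 CPM in every library. Among them *DCN*, *LUM* and *COL3A1* were upregulated and *VIM* was downregulated (log2 fold changes of 0.33, 0.29, 0.18 and -0.10, adjusted p below 0.05 from edgeR), though *VIM* lost the call in 6 of 13 alternative analyses. Of all genes tested, 2.95% were upregulated and 2.76% downregulated at this threshold. The 7 epithelial markers summed to at most 1.41 CPM and the 5 immune and endothelial markers to at most 0.616 CPM, with *KRT5*, *ESRP1*, *PECAM1* and *CDH5* at 0 in all 6 libraries. The tested gene with the smallest p was *CLDN4* in the first of these lists (adjusted p = 0.494 from edgeR) and *VWF* in the second (adjusted p = 0.836). In bulk RNA, fewer cells of a type and less RNA per cell cannot be told apart. Nothing states that replicates were separate cultures, so the p values measure only the spread between these libraries.

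Upstream sequences are shown for 3 members whose spread within 4-OHT CM differed, with coefficients of variation (SD over mean) of 33.5% for *EGR1*, 11.8% for *JUNB* and 4.85% for *JUND*. They are the 220 bases before the RefSeq transcription start on GRCh38.p14, written 5′ to 3′ on the strand of the gene. Capitals mark matches to the CArG box bound by SRF, to the EGR site GCGNGGGCG, to the CRE TGACGTCA or to the TATA box TATAAA.
*EGR1* (chr5:138465259-138465478, plus strand): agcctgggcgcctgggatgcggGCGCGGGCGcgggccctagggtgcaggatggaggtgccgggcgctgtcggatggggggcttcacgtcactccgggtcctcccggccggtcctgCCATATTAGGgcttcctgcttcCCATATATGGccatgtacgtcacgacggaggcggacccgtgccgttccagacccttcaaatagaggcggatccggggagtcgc
*JUNB* (chr19:12791266-12791485, plus strand): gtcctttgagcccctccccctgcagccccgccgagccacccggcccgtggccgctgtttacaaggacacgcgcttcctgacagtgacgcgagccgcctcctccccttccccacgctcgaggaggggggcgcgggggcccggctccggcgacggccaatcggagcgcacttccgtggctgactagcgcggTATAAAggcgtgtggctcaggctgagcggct
*JUND* (chr19:18281623-18281842, minus strand): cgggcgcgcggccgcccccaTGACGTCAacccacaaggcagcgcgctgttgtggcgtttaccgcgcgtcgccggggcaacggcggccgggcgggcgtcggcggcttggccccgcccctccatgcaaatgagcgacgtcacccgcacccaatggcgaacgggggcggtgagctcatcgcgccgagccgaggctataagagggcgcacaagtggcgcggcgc

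RefSeq windows of 250 bases before the start were found for 8 of the 10 members, all but *FOSL1* and *EGR3*, and were searched on both strands. *EGR1* held 2 CArG boxes, at -105 to -96 and -83 to -74 counted back from -1 at the base before the start. No other member of the 8 had one within these 250 bases, and sequence further upstream was not searched. Of all 35116 RefSeq windows of this length, 1.16% held a CArG box. The TATA box was found in *FOS*, *FOSB* and *JUNB*, against 10.7% of all windows. *JUND* had the CRE at -200 to -193 (1.65% of all windows), and *EGR1* had an EGR site at -198 to -190 (8.41% of all windows). The AP-1 site TGANTCA was in none of the 8 windows and in 6.57% of all. In the deposited annotation *FOS*, *FOSL2*, *JUN* and *ATF3* start 54 to 410 bases further upstream than in RefSeq, so their windows contain exon and are not printed. These matches are letters in a window and were not tested as sites.

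Among the 10 members 1 was a differentially expressed gene (DEG) in 4-OHT CM, with an adjusted p below 0.05 from edgeR's quasi-likelihood test. This was *FOSL1*, which fell. Of all genes tested, 5.72% were DEGs and 2.76% were DEGs with a lower level. DESeq2 likewise called *FOSL1* alone of the members, where 7.69% of the genes it gave an adjusted p were called. The median log2 fold change of the 10 members was 0.035, and that of all genes tested was -0.0020. By sign alone 6 members were higher and 4 lower in 4-OHT CM, and 50.5% of all genes were lower. *FOSL1* and *ATF3* were the 2 members whose groups did not overlap, which held for 22.1% of all genes tested, 10.4% with lower and 11.7% with higher 4-OHT CM values. Without adjustment, *FOSL1*, *ATF3* and *JUNB* had a p below 0.05, as did 17.3% of all genes.

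**Figure D1:**
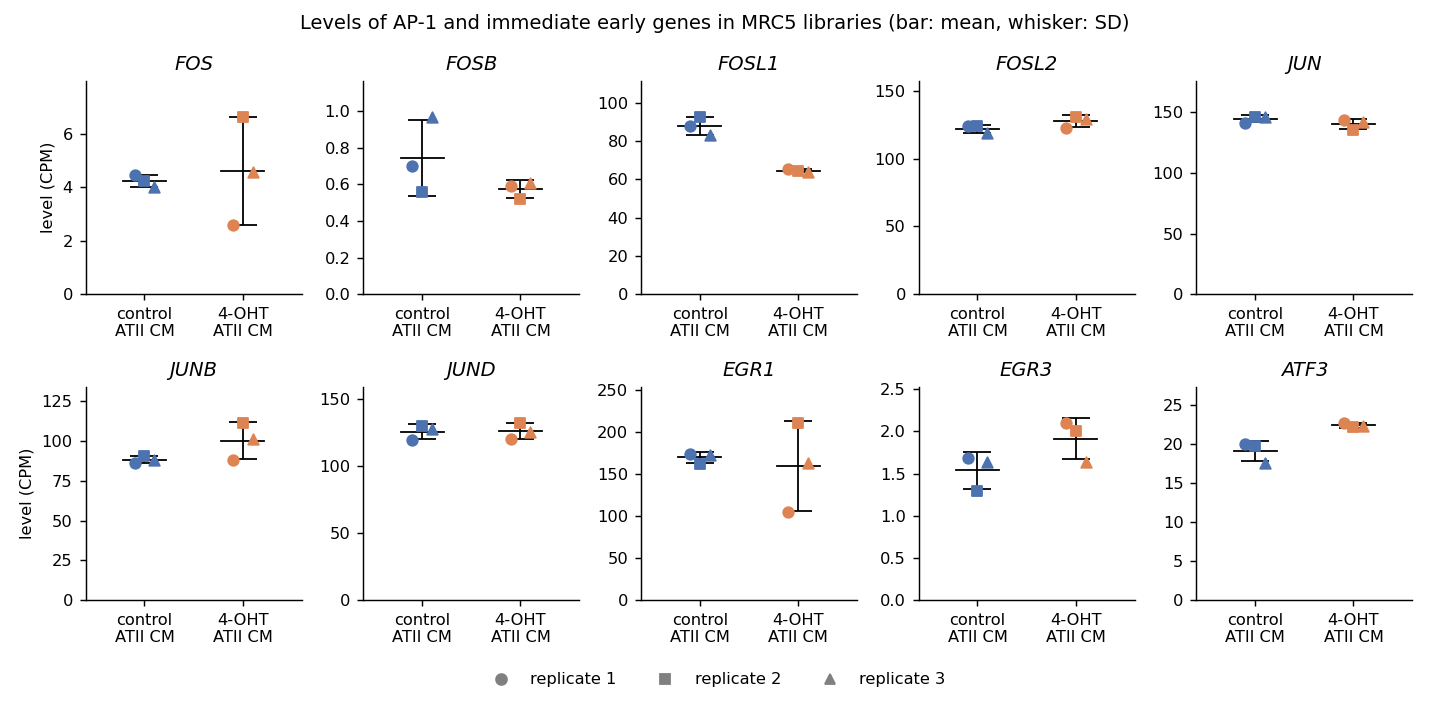
Level of each member in CPM, on axes that start at 0, in control CM (blue) and 4-OHT CM (orange), with a marker shape for each replicate, the group mean as a line and the SD as whiskers (n = 3). *FOSL1* is lower in every 4-OHT library, while *EGR1* and *FOS* spread widely among the 4-OHT libraries and little among the controls.

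*FOSL1* (ENSG00000175592) is located on the minus strand of chromosome 11 (GRCh38, 65892049 to 65900573), and its exons share no base with another gene of the table. Counts were 1874, 1659 and 1892 for the 3 control CM libraries, or 87.8, 92.9 and 83.5 CPM. In 4-OHT CM the counts were 1430, 1603 and 1686, or 65.3, 64.3 and 64.1 CPM. All 3 treated libraries were below all 3 control libraries. The treated values also lay closer to each other than the controls did, though 3 values measure a spread poorly. The group levels were 88.1 ± 4.71 CPM (SD, n = 3) and 64.6 ± 0.640 CPM (SD, n = 3), with a log2 fold change of -0.45 (standard error, SE, 0.0428, 95% interval -0.54 to -0.35, adjusted p = 2.04e-05 from edgeR). Without control CM replicate 2, its highest library, the log2 fold change was -0.41 (adjusted p = 1.12e-06). This gene ranked 23 by p among all genes tested, and 12 among those with a lower level. *FOSL1* was a DEG in all 13 alternatives (other tools, scalings and filters, a replicate block, and each library left out), with log2 fold changes from -0.49 to -0.41 and adjusted p values from 1.64e-20 to 0.000609.

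*FOSL2* (ENSG00000075426, chromosome 2, 28392448 to 28417312, plus strand), the other FRA gene, was not a DEG. Its level was 124, 124 and 119 CPM in control CM and 123, 131 and 129 CPM in 4-OHT CM. These groups overlapped. Its log2 fold change was 0.064 (SE 0.0388, 95% interval -0.019 to 0.15, adjusted p = 0.447 from edgeR). This value was 0.037 without control CM replicate 3 and 0.096 without 4-OHT CM replicate 1. The log2 ratio of *FOSL1* to *FOSL2* counts within a library does not depend on scaling. It was -0.47 ± 0.0492 (SD, n = 3) in control CM and -0.98 ± 0.0650 (SD, n = 3) in 4-OHT CM. The difference of -0.51 gave p = 0.1 in an exact permutation test (two-sided), the smallest value that 3 libraries against 3 allow, and all 3 treated ratios were below all 3 control ratios. *FOSL1* already differed in these same libraries while *FOSL2* hardly did. The outcome for the ratio follows from that and is no separate support.

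*FOS* (ENSG00000170345, chromosome 14, 75278774 to 75282230, plus strand) and *FOSB* (ENSG00000125740, chromosome 19, 45467995 to 45475179, plus strand), the members with the strong activation domain, were at 1.31 and 0.134 CPM per kb in control CM, where *FOSL1* and *FOSL2* were at 46.7 and 17.1 CPM per kb. *FOS* had 95, 76 and 91 counts in control CM and 57, 166 and 120 in 4-OHT CM, or 4.45, 4.26 and 4.02 CPM against 2.60, 6.66 and 4.57 CPM. The controls lay inside the range of the treated libraries. Its log2 fold change was 0.13 (SE 0.231, 95% interval -0.36 to 0.62, adjusted p = 0.840 from edgeR), and it turned to -0.23 without 4-OHT CM replicate 2. *FOSB* had 15, 10 and 22 counts in control CM and 13, 13 and 16 in 4-OHT CM. The values overlapped, and its log2 fold change of -0.39 (95% interval -1.06 to 0.28, adjusted p = 0.595 from edgeR) was not detectable as a difference at this depth. It was -0.15 without control CM replicate 3 and -0.54 without control CM replicate 2.

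Per kb of exon, *FOSL1* made up most of the summed level of the 4 FOS genes in every library. Its share was 71.2%, 72.4% and 71.1% in control CM and 65.7%, 62.5% and 63.5% in 4-OHT CM. *FOSL2* held 26.2% ± 0.621 and 33.3% ± 0.651 (SD, n = 3 each). Neither share overlapped between the groups, that of *FOSL1* being lower and that of *FOSL2* higher in 4-OHT CM. *FOS* held between 1.53% and 3.77% and *FOSB* at most 0.281%. The summed level of the family was 65.2 ± 2.87 CPM per kb (SD, n = 3) in control CM and 53.6 ± 0.945 CPM per kb (SD, n = 3) in 4-OHT CM. Shares of one whole are tied to each other and were not tested.

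**Figure D2:**
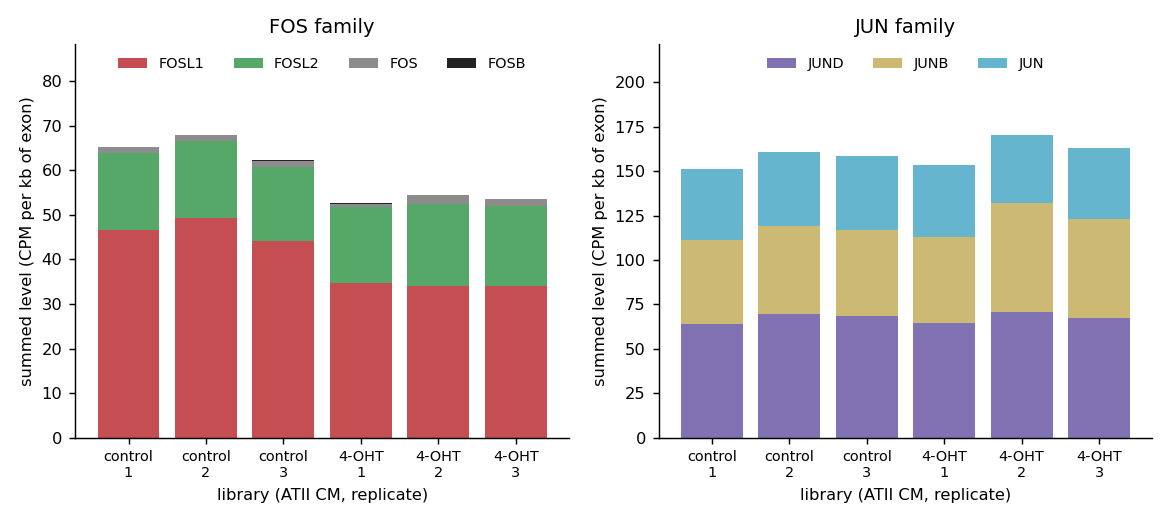
Summed level in CPM per kb of exon of the 4 FOS genes (left) and the 3 JUN genes (right) in each library, stacked by gene, with the replicate number under each bar. The FOS family sum is between 62.2 and 68.0 in control CM and between 52.7 and 54.5 in 4-OHT CM, and the red *FOSL1* segment is the one that is visibly shorter; the JUN family sums overlap.

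The JUN genes, which lack introns and supply partners of the FOS proteins, were the most abundant family. None of the 3 was a DEG. *JUN* (ENSG00000177606, chromosome 1, 58780788 to 58784327, minus strand), the founding member, was at 142, 147 and 147 CPM in control CM and at 144, 136 and 142 CPM in 4-OHT CM. These values overlapped, with a log2 fold change of -0.046 (95% interval -0.12 to 0.032, adjusted p = 0.586 from edgeR). For *JUN* this was -0.065 without control CM replicate 1 and -0.024 without 4-OHT CM replicate 2. *JUND* (ENSG00000130522, chromosome 19, 18279760 to 18281622, minus strand), known for steady expression in resting cells, was at 119, 130 and 128 CPM and at 120, 132 and 125 CPM. Its log2 fold change was 0.0054 (95% interval -0.089 to 0.10, adjusted p = 0.972), and this sign was not stable, with values from -0.034 to 0.043 over the alternatives, below 0 when libraries were scaled by their totals alone.

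*JUNB* (ENSG00000171223, chromosome 19, 12791496 to 12793315, plus strand), an early gene that can restrain JUN, was at 85.9, 90.3 and 88.3 CPM in control CM. In 4-OHT CM it was at 88.0, 111 and 101 CPM. Replicates 2 and 3 of 4-OHT CM lay above all controls and replicate 1 lay among them. The log2 fold change was 0.19 (SE 0.0630, 95% interval 0.054 to 0.32, adjusted p = 0.105 from edgeR). *JUNB* passed the threshold in 2 of 13 alternatives, without a filter on low counts (adjusted p = 0.000177) and without 4-OHT CM replicate 1, which gave 0.28 on the log2 scale (adjusted p = 0.00521), and over all of them the adjusted p reached 0.424. Without 4-OHT CM replicate 2 the log2 fold change was 0.10. In the deposited annotation 259 bases (14.2%) of *JUNB* exon overlap *HOOK2* on the opposite strand, and the sources used here do not give a strand setting for the counting.

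The summed level of the 3 JUN genes was 157 ± 5.01 CPM per kb (SD, n = 3) in control CM and 162 ± 8.63 CPM per kb (SD, n = 3) in 4-OHT CM, with overlapping values. *JUND* made up 43.0% ± 0.587 and 41.6% ± 0.361 of it (SD, n = 3 each). The share of *JUNB* was 30.9% ± 0.307 in control CM and 33.9% ± 2.21 in 4-OHT CM, and that of *JUN* was 26.1% ± 0.354 and 24.5% ± 2.00. The shares of *JUNB* (30.6% to 31.2% against 31.5% to 35.9%) and of *JUND* did not overlap between the groups, and those of *JUN* did. These shares are likewise tied to each other and were not tested, and the levels of *JUNB* and *JUND* themselves overlapped. In each library the JUN genes summed to more than the FOS genes.

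*ATF3* (ENSG00000162772, chromosome 1, 212565334 to 212620777, plus strand), which stress and injury induce, was near the threshold. Its counts were 428, 352 and 399 in control CM and 498, 552 and 588 in 4-OHT CM, or 20.1, 19.7 and 17.6 CPM against 22.7, 22.1 and 22.4 CPM. Every treated library was above every control. The log2 fold change was 0.23 (SE 0.0666, 95% interval 0.090 to 0.37), and the adjusted p of 0.0547 from edgeR missed the threshold. It passed in 4 of 13 alternatives, namely limma-voom, both other filters on low counts and the fit without control CM replicate 2, and the adjusted p ranged from 0.0181 to 0.274. Without control CM replicate 3, the lowest library, the log2 fold change was 0.17.

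*EGR1* (ENSG00000120738, chromosome 5, 138465490 to 138469315, plus strand), a factor that drives growth and matrix genes, stood out by its spread. Its level was 175, 162 and 173 CPM in control CM. In 4-OHT CM it was 105, 211 and 163 CPM. Replicate 1 of 4-OHT CM was below all controls, replicate 2 above all of them and replicate 3 among them. The log2 fold change of -0.088 had a SE of 0.152 (95% interval -0.41 to 0.24, adjusted p = 0.839 from edgeR). It was 0.14 without 4-OHT CM replicate 1 and -0.34 without replicate 2, so the direction rests on single libraries.

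*EGR3* (ENSG00000179388, chromosome 8, 22687659 to 22693302, minus strand), a relative induced by the same signals, had 36, 23 and 37 counts in control CM and 46, 50 and 43 in 4-OHT CM, or 1.54 ± 0.216 CPM and 1.91 ± 0.246 CPM (mean ± SD, n = 3 each). After scaling to library size, replicate 3 of 4-OHT CM (1.64 CPM) lay below control CM replicate 1 (1.69 CPM), so the groups overlapped. Its log2 fold change was 0.30 (SE 0.205, 95% interval -0.13 to 0.74, adjusted p = 0.507 from edgeR), and 0.20 without control CM replicate 2. *NAB1* and *NAB2*, which encode corepressors of EGR proteins, were both tested and neither was a DEG. *NAB2*, with the smaller p, was at 84.6 ± 5.08 CPM in control CM and 89.6 ± 2.61 CPM in 4-OHT CM (mean ± SD, n = 3 each), with a fitted log2 fold change of 0.085 (adjusted p = 0.362, and 0.0436 to 0.724 over the alternatives, the lowest without control CM replicate 2). That fold change was 0.043 without control CM replicate 1 and 0.13 without control CM replicate 2.

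**Figure D3:**
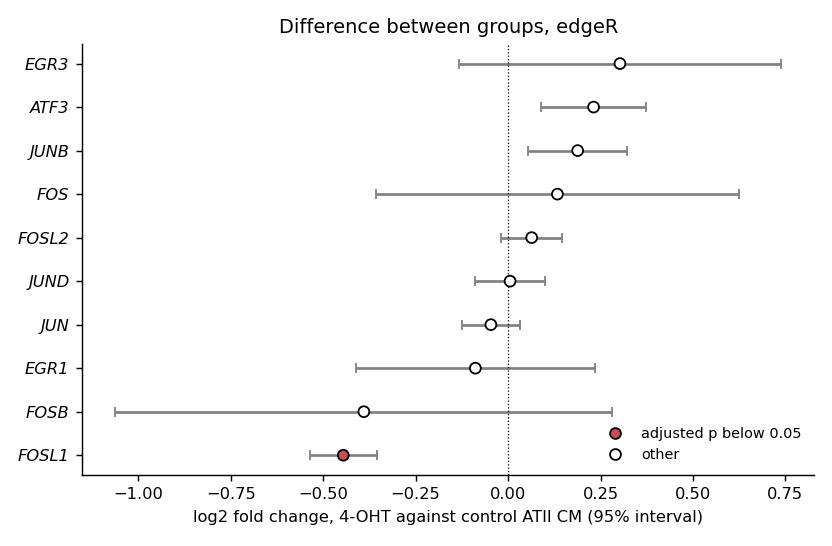
Log2 fold change of each member between 4-OHT CM and control CM from edgeR, with 95% intervals; the filled point has an adjusted p below 0.05. *FOSL1* at -0.45 is the filled one, the intervals of *ATF3* and *JUNB* lie above 0, and those of *FOSB*, *EGR3* and *FOS* are the widest.

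Levels per kb of exon put the members in an order that differed between the groups in 2 places, at *FOSL1* and *JUN* and at *EGR1* and *JUNB*. In control CM the order was *JUND* (67.3 CPM per kb), *EGR1* (54.2), *JUNB* (48.4), *FOSL1* (46.7), *JUN* (40.9), *FOSL2* (17.1), *ATF3* (4.73), *FOS* (1.31), *EGR3* (0.316) and *FOSB* (0.134). Of these neighbours, *JUNB* and *FOSL1* overlapped in their ranges and the others did not. In 4-OHT CM *JUND* was again first (67.6 CPM per kb), followed by *JUNB* (55.1), *EGR1* (50.9), *JUN* (39.6) and *FOSL1* (34.2). *FOSL1* was thus above *JUN* in all 3 control libraries and below it in all 3 treated ones. There the ranges of *JUNB* and *EGR1* overlapped, and so did those of *EGR1* and *JUN*. The lower 5 members kept their order. Among all genes tested, ranked on the same scale over both groups, *JUND* stood at percentile 97.1 and *FOSL1* at percentile 94.9, while *FOS* stood at percentile 44.9 and *FOSB* at percentile 14.3.

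The spread of *EGR1* and *FOS* within 4-OHT CM was large for these data. The coefficient of variation of *EGR1* was 3.92% in control CM and 33.5% in 4-OHT CM, and that of *FOS* was 5.14% and 44.0%. Over the 13051 genes with a mean of at least 1 CPM, the median was 5.30% in control CM and 4.34% in 4-OHT CM. A value as high as that of *EGR1* in 4-OHT CM was seen in 1.16% of these genes, and one as high as that of *FOS* in 0.529%. From 4-OHT CM replicate 1 to replicate 2, *EGR1* differed 2.02-fold and *FOS* 2.56-fold. For *FOS*, the 95% Poisson intervals were 1.97 to 3.37 CPM in replicate 1 and 5.68 to 7.75 CPM in replicate 2, the lowest and the highest library of a gene picked for its spread, and they cover counting error only. *FOSL1* and *ATF3* had coefficients of variation of 0.991% and 1.37% in the same libraries, and 94% and 89.6% of these genes had one as high. Each rests on 3 values, and whether it lies below counting error was not tested.

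Some other early genes were lowest and highest in the same treated libraries. The order, replicate 1 lowest and replicate 2 highest of 4-OHT CM, was first seen in *EGR1* and *FOS* and then counted over the other genes, as a description. Of the 7 other members with at least 1 CPM it held in 3, *JUNB*, *JUND* and *FOSL2*. This was so in 9 of 17 other immediate early genes and in 19.8% of all genes of that level. One of the 9 was *IER2*, a gene of the same rapid class, at 33.8, 33.3 and 33.8 CPM in control CM and 30.5, 38.3 and 34.5 CPM in 4-OHT CM. *NR4A1*, an early orphan receptor gene, also was highest in replicate 2, with 6.12, 8.18 and 5.74 CPM, though replicate 3 was its lowest. Both were picked for this after their values were seen. Totals of the 3 treated libraries were 21798614, 25139285 and 26389449 counts, and the share of counts on mitochondrial genes was 1.86%, 2.05% and 1.98%. Their part in this spread was not tested.

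**Figure D4:**
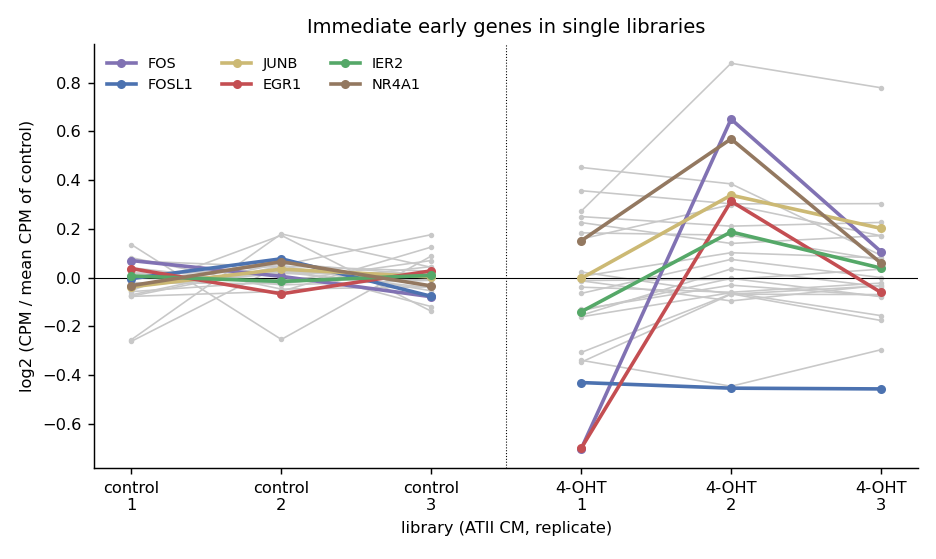
Log2 ratio of each library's CPM to the mean of control CM, for members and other immediate early genes with a mean of at least 1 CPM, with 6 genes in colour and the rest in grey; lines join the points of 1 gene within a group and imply no order of the libraries. *EGR1* and *FOS* are at 61.5% and 61.4% of the control mean in 4-OHT replicate 1 and at 124% and 157% in replicate 2, while *FOSL1* is level and below 0 in all 3 treated libraries.

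A list of 22 other immediate early genes was followed beside the members, of which 19 were tested. In edgeR 2 of them were upregulated, none was downregulated, 8 had an unadjusted p below 0.05, and the median log2 fold change was -0.028. Of all genes tested, 2.95% were upregulated DEGs, 2.76% downregulated ones, and 17.3% had an unadjusted p below 0.05. The count of DEGs in the list was 6 without a filter on low counts, 1 with any one 4-OHT CM library left out, and 2 or 3 in the other alternatives. Downregulated genes were among the calls of some, with 1 higher and 1 lower in DESeq2, 2 higher and 1 lower in limma-voom, and 4 higher and 2 lower without a filter on low counts. *TIPARP*, an ADP-ribosyltransferase gene known as a target of the aryl hydrocarbon receptor, rose from 48.8 ± 1.25 to 61.0 ± 1.32 CPM (mean ± SD, n = 3 each), which is 0.32 on the log2 scale (SE 0.0403, adjusted p = 0.000194 from edgeR). It was a DEG in all 13 alternatives. *BTG2*, an antiproliferative gene, rose from 34.6 ± 0.354 to 39.2 ± 1.18 CPM (mean ± SD, n = 3 each), which is 0.18 on the log2 scale (adjusted p = 0.0333), but lost the call in 6 of 13 alternatives, DESeq2 among them (adjusted p over the alternatives from 0.0124 to 0.132). *EGR2*, a further EGR gene, lies outside the naming rule and was chosen after its values were seen. Its level was 1.29 ± 0.192 CPM in control CM and 2.04 ± 0.431 CPM in 4-OHT CM (mean ± SD, n = 3 each), with a fitted log2 fold change of 0.68 (SE 0.225, adjusted p = 0.10 from edgeR), with no overlap.

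Other AP-1 and dimer partner genes, such as the small MAF genes, *JDP2* and *ATF2*, numbered 12, and none of the 11 tested was a DEG in edgeR, with 3 at an unadjusted p below 0.05. Of all genes tested, 5.72% were DEGs and 17.3% had such a p, so a count of 0 in a list of this size is near the background. DESeq2 and limma-voom also called 0, and 1 was called without a filter on low counts or without 4-OHT CM replicate 1. The smallest p in this list was that of *CREB5*, at 9.10 ± 0.476 CPM in control CM and 7.17 ± 1.40 CPM in 4-OHT CM (SD, n = 3 each), with a log2 fold change of -0.35 (adjusted p = 0.130 from edgeR, from 0.0356 to 0.442 over the alternatives). That fold change was -0.48 without 4-OHT CM replicate 1 and -0.21 without 4-OHT CM replicate 3. The kinases and factors upstream, among them the ERK, JNK and p38 kinases, SRF and its partners, were 18 genes, all tested, with no DEG in edgeR or in any of the 13 alternatives and 2 at an unadjusted p below 0.05, against 5.72% and 17.3% of all genes tested in edgeR. Their log2 fold changes lay between -0.096 and 0.099. *MAPK14*, which encodes p38α, had the smallest p, at 76.6 ± 1.09 CPM and 82.0 ± 2.49 CPM (SD, n = 3 each, adjusted p = 0.176). RNA levels of kinases say nothing of their phosphorylation.

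Of 12 genes that report ERK output, all tested, 4 were downregulated and 1 was upregulated. The median log2 fold change was -0.15, and 11 of the 12 were lower by sign. Of all genes tested, 5.72% were DEGs, 2.76% were downregulated ones and 50.5% were lower by sign. The 5 calls became 3 without 4-OHT CM replicate 2 or 3, and were 4 to 6 in the other alternatives. The downregulated ones were *DUSP5* and *DUSP6*, phosphatases that switch ERK off, *EPHA2*, a receptor kinase gene, and *CCND1*, which encodes cyclin D1. *DUSP5* changed most of these, from 28.4 ± 2.70 to 22.5 ± 1.01 CPM (mean ± SD, n = 3 each), which is -0.33 on the log2 scale (SE 0.0693, adjusted p = 0.00928 from edgeR, but 0.0672 without 4-OHT CM replicate 2). *CCND1* fell from 841 ± 12.3 to 757 ± 5.14 CPM (mean ± SD, n = 3 each), which is -0.15 on the log2 scale (adjusted p = 0.00332), and was a DEG in all 13 alternatives. *DUSP6* and *EPHA2* each had a log2 fold change of -0.19 (adjusted p = 0.0231 and 0.0148), and the calls were lost in 4 and 2 of 13 alternatives, all with 1 library left out. *PHLDA1* went the other way, from 308 ± 3.64 to 377 ± 2.00 CPM (mean ± SD, n = 3 each), which is 0.29 on the log2 scale (adjusted p = 3.7e-05). *DUSP5*, *EPHA2* and *CCND1* were highest among the controls in replicate 2, and without it their log2 fold changes were -0.25, -0.15 and -0.14 (adjusted p = 0.0175, 0.0143 and 0.000735). Exons of *DUSP6*, *CCND1* and *PHLDA1* overlap genes on the opposite strand.

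Genes with known AP-1 sites, 15 in number and all tested, held 3 downregulated and no upregulated DEGs, with a median log2 fold change of -0.086, where 2.76% of all genes tested were downregulated and 2.95% upregulated DEGs. The 3 calls became 1 without 4-OHT CM replicate 2 or 3, and were 2 to 4 in the other alternatives. *HMGA1*, a chromatin protein gene, fell from 697 ± 33.3 to 494 ± 9.91 CPM (mean ± SD, n = 3 each), which is -0.50 on the log2 scale (SE 0.0356, adjusted p = 2.66e-06 from edgeR), and was a DEG in all 13 alternatives. *PLAUR*, the urokinase receptor gene, and the receptor kinase gene *AXL* had log2 fold changes of -0.18 and -0.15 (adjusted p = 0.0355 and 0.00759). All 3 were also highest among the controls in replicate 2, and without it *HMGA1*, *PLAUR* and *AXL* had log2 fold changes of -0.47, -0.15 and -0.14 (adjusted p = 1.68e-08, 0.0560 and 0.00285). *PLAUR* lost the call in 5 and *AXL* in 2 of 13 alternatives, all with 1 library left out. Both lists were written with earlier results of these data known, so their direction is a description.

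**Figure D5:**
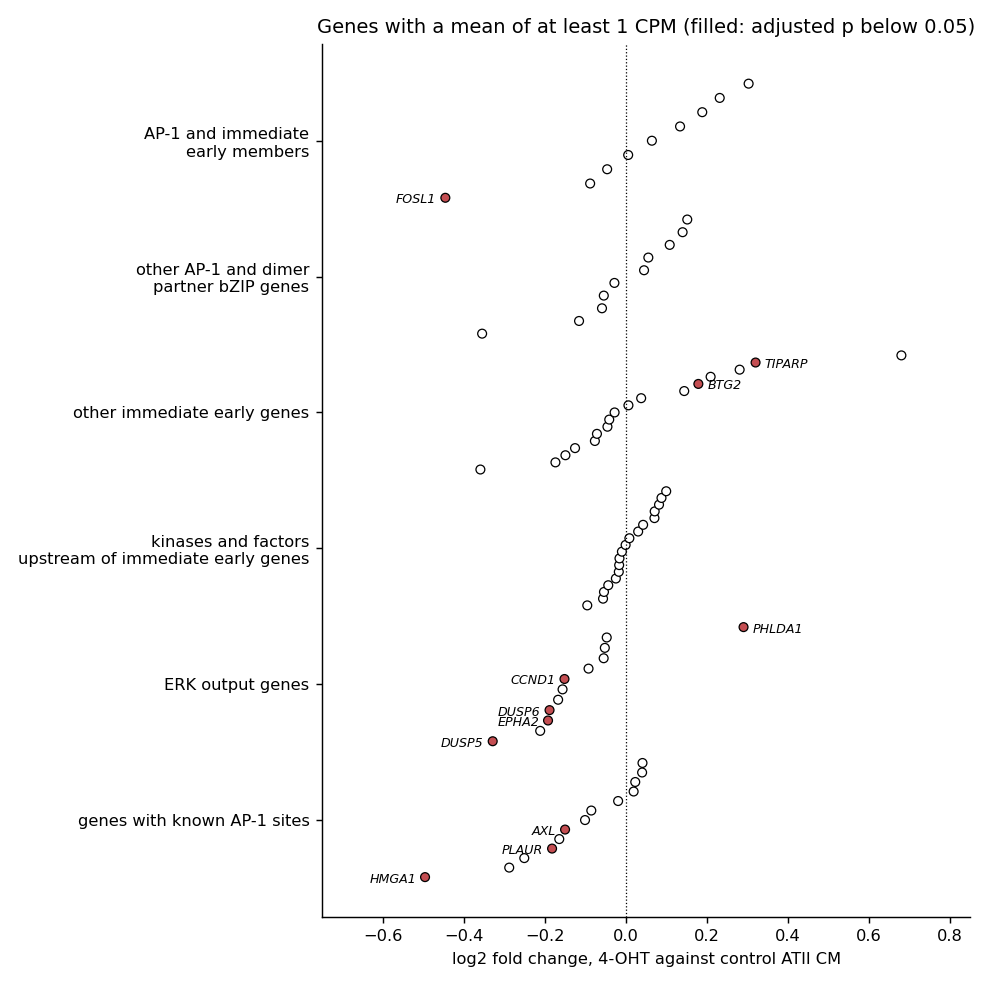
Log2 fold change between 4-OHT CM and control CM for genes with a mean of at least 1 CPM in 6 lists, 1 point per gene, sorted within each list; filled points have an adjusted p below 0.05 and are named. The kinases and factors upstream stay between -0.096 and 0.099, *FOSL1* is the filled member, and 7 of the 8 filled points in the lowest lists are below 0.

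The 5 genes whose profile was most like that of *FOSL1* were sought among 9202 genes with a mean of at least 10 CPM. Likeness was the mean absolute difference between log2 CPM values over the 6 libraries, after centring each gene on its own mean. They were *KIF11*, *CDK1*, *CENPE*, *KIF18B* and *GGH*, with mean differences of 0.0263, 0.0374, 0.0380, 0.0392 and 0.0401. *KIF11* was at 24.8 ± 0.712 CPM in control CM and 18.3 ± 0.359 CPM in 4-OHT CM (mean ± SD, n = 3 each), with a fitted log2 fold change of -0.44. The log2 fold changes of the other 4 lay between -0.51 and -0.44. The search over the same libraries fixed values near that of *FOSL1*, so they are a description.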

How the data were processed

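RNA-Seq was performed on 6 libraries of MRC5 cells, 3 per group. The authors trimmed reads with Trim Galore, aligned them to GRCh38 with HISAT2 2.1.0 and counted them per gene with featureCounts 1.6.5, as named in the study's methods and the submitters' processing notes, and deposited raw counts with the merged exon length of each gene. The annotation release, strand setting and handling of multimapping reads are not given in the sources used here. Groups were taken from the sample labels. Of 58721 lines, 45 X and Y pairs were summed, leaving 58676 identifiers. Genes with at least 10 counts over all libraries (19072) were scaled by TMM and tested with edgeR 4.0.16 (quasi-likelihood test, Benjamini-Hochberg adjustment, threshold 0.05, R 4.3.3), after a test on simulated data. DESeq2 1.42.0, limma 3.58.1 (voom), other scalings and filters, a replicate block and leaving out each library were the alternatives. Library totals of 17691849 to 26389449 counts limit counting error only, and the p values rest on the spread between libraries. A level per kb is CPM over the deposited exon length. The FOSL1 to FOSL2 ratio was tested by exact permutation. Promoters are from RefSeq tables (GRCh38.p14). By rule the text names all members, the genes past the threshold in each fixed list, otherwise that with the smallest p, and the 5 genes most like FOSL1. Values of IER2, NR4A1 and EGR2 are given outside this rule and were picked after they were seen. Members and lists were chosen with earlier results of these data known. One gene of the list with known AP-1 sites is not reported here and was left out of that list, but not out of the fit.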

Additional observations from a re-analysis of the deposited data

How the results depend on the processing

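*FOSL1* was a DEG under all 13 alternatives. The number of members called was 2 with limma-voom, 3 without a filter on low counts and 2 with filterByExpr, the additions being *ATF3* and *JUNB*, and from 1 to 2 when 1 library was left out. Called genes over the whole table, 1601 without a filter on low counts and 954 to 1172 with other tools, scalings, filterByExpr or the block, numbered between 533 (4-OHT CM replicate 2 left out) and 1530 (control CM replicate 2 left out) when 1 library was left out, with fewer samples in each such fit. The *FOSL1* to *FOSL2* difference ranged from -0.55 to -0.48 when 1 library was left out. Members whose sign turned were *FOS* (-0.23 without 4-OHT CM replicate 2, and up to 0.41 without replicate 1), *EGR1* (0.14 without 4-OHT CM replicate 1, and down to -0.34 without replicate 2) and *JUND* (-0.0017 with library totals alone, -0.034 without control CM replicate 1 and -0.033 without 4-OHT CM replicate 2, and up to 0.043 without 4-OHT CM replicate 1), and none of these was called. Over the 10 members, 119 of 130 alternative values kept direction and side of the threshold. Deviations of same-numbered libraries from their group means had correlations of -0.014, -0.10 and -0.093 over 9691 genes. Centring on means of 3 libraries limits these values, so they cannot show whether same-numbered libraries shared a culture or day. With the replicate block 985 genes and 1 member were called. Depth is lowest for *FOSB* and *EGR3*, which had 10 to 50 counts a library.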
